A study of Arabidopsis thaliana with 18 samples.

Results

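The comparison described here sets explants of *Arabidopsis thaliana* cultured for 5 d on an auxin medium against explants cultured for the same time without hormone. Its 6 libraries, of 18 in the series, were chosen by the medium and day in their labels, 3 on EA and 3 on E0. All explants were immature zygotic embryos (IZEs) of the wild-type Columbia (Col-0) accession taken at the cotyledonary stage. Both media had the same base. EA contained in addition 5 µM 2,4-dichlorophenoxyacetic acid (2,4-D), a stable synthetic auxin under which somatic embryos form on the cotyledons of the explant, and E0 contained neither hormone nor inhibitor, so that the explants grew into seedlings. The other 12 libraries came from E0 and EA at 10 d and from ET, a medium with 1 µM trichostatin A (TSA, an inhibitor of histone deacetylases), at both days, and are used only where a 5 d change is set beside them. Each library was made from a pool of whole explants, so that every value is an average over all tissues of the explant. The replicates, named a, b and c, are biological replicates per the study's methods.

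Auxin is perceived by the TIR1/AFB F-box proteins, which bind Aux/IAA repressors in its presence and mark them for degradation. This frees the AUXIN RESPONSE FACTORs (ARFs), which bind TGTC-containing elements in promoters, and many of the genes they induce act back on the hormone: Aux/IAA genes restore repression and GH3 genes encode enzymes that conjugate auxin to amino acids. In tissue culture 2,4-D also drives callus formation along a pathway shared with lateral roots, through *LBD*, *PLT* and *WOX* genes, and in immature embryos it triggers somatic embryogenesis (SE), with seed regulators such as *LEC2* at its centre. Embryos without hormone germinate instead, and their roots form hairs and endodermis while the shoot greens.

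Library totals of replicates a, b and c were 45361683, 10679746 and 9098758 counts on E0 and 29261617, 42930401 and 40131041 counts on EA, and 3 counts, used as the floor of detection for a library, were worth 0.0623 to 0.329 CPM, the counts relative to the scaled total of a library. Expression is given throughout as CPM on library sizes scaled by the trimmed mean of M values (TMM), always in that order of replicates, and is not corrected for gene length. The log2 fold changes are EA against E0, with the standard error (SE) of the fit. The chloroplast genome took 5.15% to 6.55% of counts on E0 and 5.28% to 6.22% on EA, and the 10 most abundant genes took 14.3% to 17.9% and 7.82% to 9.15%.

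Of 23539 genes tested, 9368 (39.8%) differed between EA and E0 at an adjusted p under 0.05 in edgeR's quasi-likelihood test, of which 4462 (19%) were higher and 4906 (20.8%) lower on EA. These shares are the background for the counts of each gene group below. The 6 libraries did not overlap for 57.8% of the genes tested. The larger changes were mostly decreases, since 1645 genes fell at least 10-fold and 278 rose at least 10-fold. Of these, 647 had at most 3 counts in every EA library and 118 at most 3 counts in every E0 library, so that many of the changes were between a measured level and one at or under the floor. The split between directions depended on the scaling. With library totals in place of TMM 6446 genes were higher and 4030 lower, and the median log2 fold change of all genes moved from 0.02 to 0.23, whereas with DESeq2's size factors the counts were 3989 and 5198.

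**Figure D1:**
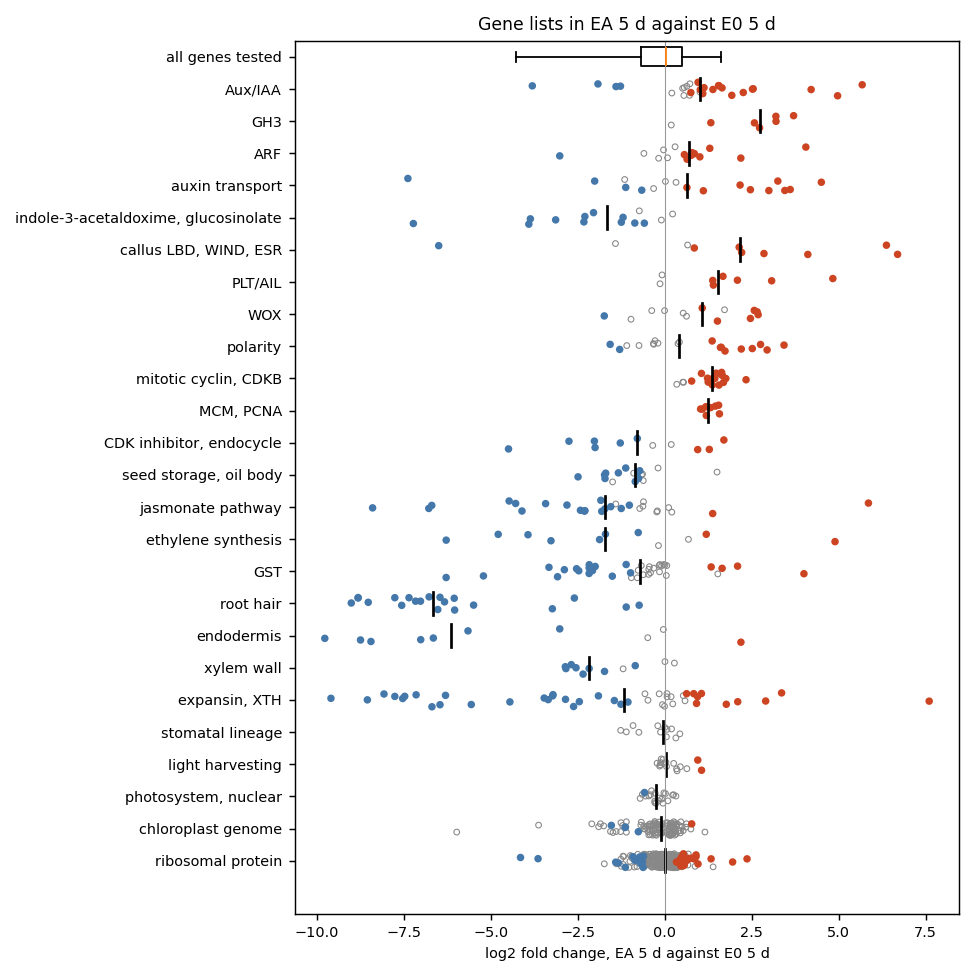
Log2 fold change (EA 5 d against E0 5 d) of the tested members of gene groups described in the text, 1 row a group, with a box for all 23539 genes with whiskers from the 5th to the 95th percentile. Filled red points were called higher and filled blue points lower at an adjusted p under 0.05, open grey points were not called, and the black tick is the group median, which was -6.65 for root hair genes, 2.72 for *GH3* genes and 1.37 for mitotic cyclin and CDKB genes.

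The genes with the largest rises on EA, chosen by a rule on the size of the change, level and non-overlap of the libraries, included regulators of root meristems, wounding and hormone metabolism together with genes of unknown function. *RGF2* (AT1G13620), which encodes a secreted peptide that maintains the root stem cell niche, measured 2.21, 2.53 and 2.74 CPM on E0 and 336, 241 and 283 CPM on EA, and its log2 fold change was 6.87 (SE 0.44, adjusted p = 9.31e-09). *ERF115* (AT5G07310), an ethylene response factor known from stem cell replenishment and regeneration after wounding, measured 0.642, 0.202 and 0.658 CPM on E0 and 49.8, 44.5 and 41.6 CPM on EA, with a log2 fold change of 6.37 (SE 0.48, adjusted p = 4.68e-08). *WIP4* (AT3G20880), a zinc finger gene that acts with its paralogs in root initiation of the embryo, measured 0.76, 0.607 and 0.329 CPM on E0 and 41.9, 34.8 and 42.8 CPM on EA, with a log2 fold change of 5.98 (SE 0.36). *JMT* (AT1G19640) encodes the methyltransferase that turns jasmonic acid into its volatile methyl ester. It measured 1.26, 1.01 and 0.439 CPM on E0 and 52.7, 64.7 and 56 CPM on EA, and rose by 5.85 (SE 0.58) on the log2 scale. In each of these genes the lowest EA library was above the highest E0 library, as the rule required.

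Among the less known genes that rose, AT3G09110 and AT5G43240 both encode DUF674 proteins. AT3G09110 measured 0.0475, 0 and 0.11 CPM on E0 and 7.5, 8.84 and 14.2 CPM on EA, which is at least 43.4-fold higher against the mean floor of the E0 libraries. AT5G43240 measured 0.285, 0.101 and 0 CPM on E0 and 12.7, 18.4 and 16 CPM on EA, with a log2 fold change of 6.3 (SE 0.41). AT1G76610, of a family that includes the hydrotropism gene *MIZ1*, measured 0.0475, 0 and 0.219 CPM on E0 and 12.1, 10.5 and 14.7 CPM on EA and was at least 53-fold higher. AT5G48130, a member of the NPH3 family of phototropism and auxin transport regulators, measured 2.14, 1.62 and 2.63 CPM on E0 and 154, 113 and 120.5 CPM on EA (log2 fold change 5.92, SE 0.38). *LYK2* (AT3G01840), of the LysM receptor-like kinase family, measured 1.64, 0.708 and 1.54 CPM on E0 and 79.2, 71.6 and 89.4 CPM on EA (log2 fold change 5.87, SE 0.40), and 27.9% of its exon length overlaps a gene on the other strand. AT3G48770, annotated as an ATP and DNA binding protein, measured 0.261, 0.303 and 0.768 CPM on E0 and 26, 25.7 and 32.5 CPM on EA (log2 fold change 6.21, SE 0.62). The adjusted p of the 10 risen genes was at most 7.28e-07.

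The 10 genes with the largest decreases were at or near the floor on EA. Their mean in seedling-forming explants was at least 10 CPM, as the rule required. *EXT13* (AT5G35190), an extensin gene of the cell wall, measured 89.9, 124 and 157 CPM on E0 and 0.0961, 0.208 and 0.134 CPM on EA, and its log2 fold change was -9.64 (SE 0.74, adjusted p = 5.30e-08). *ST4B* (AT1G13420), a sulfotransferase gene, measured 90, 67.2 and 76.5 CPM on E0 and 0.0321, 0.145 and 0.0448 CPM on EA, with a log2 fold change of -9.87 (SE 0.66, adjusted p = 1.47e-08). The peroxidase gene AT3G01190 measured 74.9, 71 and 41.4 CPM on E0 and 0.0961, 0.0623 and 0.0672 CPM on EA, which is at least 829.9-fold lower against the floor. *PKS1* (AT2G02950), whose product is phosphorylated by phytochromes and acts in seedling phototropism, measured 29.1, 30 and 20.4 CPM on E0 and 0, 0 and 0.0448 CPM on EA and was at least 353-fold lower. *MRH6* (AT2G03720), named from a root hair mutant, measured 4.56, 11.3 and 20.1 CPM on E0 and 0, 0 and 0.0224 CPM on EA and was at least 159-fold lower. *EXPA11* (AT1G20190), which encodes a wall-loosening expansin, measured 29.7, 32.1 and 22.1 CPM on E0 and 0.0641, 0.0415 and 0 CPM on EA and was at least 372-fold lower. The remaining genes were AT4G31470, of the pathogenesis-related 1 family, which was at least 412-fold lower, AT1G14960, of a lipid transport family, which was at least 640.3-fold lower, and the lipid-transfer genes AT5G46890 and AT4G12520, which were at least 380.5-fold and 137-fold lower. For the last pair 22.4% and 56.8% of exonic 76-base words occur elsewhere in the genome, so that their counts of unique reads are uncertain. The adjusted p of the 10 fallen genes was at most 3.44e-06.

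**Figure D2:**
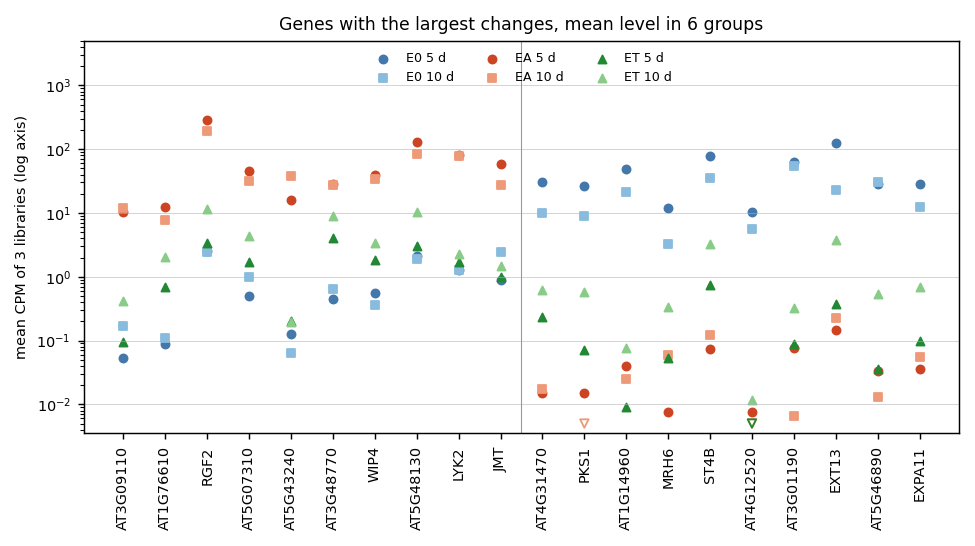
Mean CPM over 3 libraries (log axis) of the 10 genes with the largest rise (left of the line) and the 10 with the largest fall (right) on EA at 5 d, in all 6 groups of medium and day. Open triangles mark group means of 0. The EA means at both days lie above the other 4 groups for the risen genes, such as 286.5 CPM for *RGF2* at 5 d, and EA and ET means lie below both E0 means for the fallen genes.

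In EA against E0 at 10 d the log2 fold changes of these 20 genes had the same sign as at 5 d, such as 6.35 for *RGF2* and -6.65 for *EXT13*. The share of all genes for which this held was not computed. The change itself differed between the days for 1 of the 20 genes, beside 8.81% of all genes tested. This was AT5G43240, whose log2 fold change was larger at 10 d by 3.03 (adjusted p = 0.0125). Against ET at 5 d, 36.5% of all genes differed from EA. The 10 risen genes were all lower on ET than on EA, by -6.44 (adjusted p = 2.60e-08) for *RGF2* and by -2.76 (adjusted p = 2.45e-04) for AT3G48770, the least different of them, on the log2 scale. Of the 10 fallen genes, 1 was called, *ST4B*, which was higher on ET than on EA by 3.1 (adjusted p = 0.00345). The ET and E0 comparisons share the EA libraries, and the genes were chosen for their change on EA, so that these values are descriptions.

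Most Aux/IAA genes, of the primary auxin response, were higher on EA, with the largest rise in *IAA20*, a member that lacks the degron. Of 28 Aux/IAA genes tested of 29, 16 (57.1%) were higher and 4 (14.3%) lower, with a median log2 fold change of 1.01. *IAA20*, *IAA30* and *IAA33* encode Aux/IAA proteins without the conserved domain through which TIR1/AFB receptors recognise these repressors. *IAA20* measured 0.499, 1.21 and 1.21 CPM on E0 and 49.6, 48.5 and 31.4 CPM on EA, with a log2 fold change of 5.67 (SE 0.40, adjusted p = 2.27e-08). *IAA30* measured 1.64, 1.52 and 3.07 CPM on E0 and 81.9, 57 and 48.1 CPM on EA, with a log2 fold change of 4.97 (SE 0.31, adjusted p = 6.55e-09). *IAA33* measured 1.76, 4.35 and 2.85 CPM on E0 and 60.4, 56.8 and 39.4 CPM on EA, with a log2 fold change of 4.21 (SE 0.33, adjusted p = 7.06e-08). For the 3 genes the E0 and EA libraries did not overlap. *IAA1*, a classic early auxin gene with the degron, measured 15.5, 24.4 and 26.8 CPM on E0 and 141, 136 and 103 CPM on EA (log2 fold change 2.52, SE 0.27).

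The 300 bases before the annotated start of *IAA20* are shown because the gene rose more than any other Aux/IAA gene tested and because they hold the canonical auxin response element TGTCTC, in capitals. The sequence is from the RefSeq annotation of TAIR10.1, 5′ to 3′ on the strand of the gene, at chr2:19307414-19307713, plus strand.
IAA20: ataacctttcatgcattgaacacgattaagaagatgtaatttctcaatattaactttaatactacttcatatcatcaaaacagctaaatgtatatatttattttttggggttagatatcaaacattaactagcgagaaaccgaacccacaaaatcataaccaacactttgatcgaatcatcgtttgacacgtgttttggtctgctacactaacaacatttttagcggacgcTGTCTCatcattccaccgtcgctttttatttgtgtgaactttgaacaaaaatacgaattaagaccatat
TGTCTC, or its reverse complement GAGACA, was present in this window in 10 of 28 Aux/IAA genes (35.7%) and 3 of 7 *GH3* genes (42.9%), compared with 13% of 21879 promoters of protein-coding genes tested. The share was 13.2% among genes called higher and 13.8% among genes called lower. The variant TGTCGG or CCGACA was present in 6 Aux/IAA promoters (21.4%) and in 5.29% of all. *IAA33* had no match to either in this window.

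Not all of the family rose. *IAA28*, known as a repressor of lateral root formation, measured 60.4, 74.9 and 61.6 CPM on E0 and 5.0, 4.67 and 4.37 CPM on EA, with a log2 fold change of -3.81 (SE 0.16, adjusted p = 1.56e-10). *IAA14* (*SOLITARY ROOT*), which acts at the first division of lateral root founder cells, measured 20.2, 19.3 and 18.8 CPM on E0 and 6.09, 8.99 and 6.92 CPM on EA, with a log2 fold change of -1.4 (SE 0.35). *IAA16* fell as well, from 182, 272 and 248 CPM to 110.1, 108 and 72.3 CPM. *IAA2* and *IAA17*, both early auxin genes in seedlings, did not pass the test, with log2 fold changes of 0.71 (SE 0.31, adjusted p = 0.0753) and 0.51 (SE 0.22, adjusted p = 0.0809), although their libraries did not overlap.

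Genes of auxin conjugation had the largest share of rises among the auxin groups. Of 7 *GH3* genes tested of 8, 6 (85.7%) were higher, with a median of 2.72. *GH3.3* measured 25.5, 20.8 and 30.3 CPM on E0 and 245, 313 and 144 CPM on EA (log2 fold change 3.2, SE 0.29, adjusted p = 2.79e-07). *GH3.5* measured 37.9, 40.4 and 39.6 CPM on E0 and 668, 507 and 358 CPM on EA (log2 fold change 3.7, SE 0.28, adjusted p = 4.71e-08), and *GH3.1* measured 2.85, 3.34 and 2.3 CPM on E0 and 27.6, 28.8 and 21.6 CPM on EA (log2 fold change 3.19, SE 0.36). In all 3 the EA libraries were above every E0 library. *GH3.2* and *GH3.6* rose by 2.72 (SE 0.23) and 2.58 (SE 0.24) on the log2 scale. *GH3.9*, which is known as an auxin-repressed member, measured 7.51, 7.08 and 9.0 CPM on E0 and 3.52, 13.1 and 10.1 CPM on EA and did not pass (log2 fold change 0.18, SE 0.44, adjusted p = 0.771). The promoter of *GH3.3* is shown for its single TGTCTC match, in capitals, at chr2:9866563-9866862, minus strand.
GH3.3: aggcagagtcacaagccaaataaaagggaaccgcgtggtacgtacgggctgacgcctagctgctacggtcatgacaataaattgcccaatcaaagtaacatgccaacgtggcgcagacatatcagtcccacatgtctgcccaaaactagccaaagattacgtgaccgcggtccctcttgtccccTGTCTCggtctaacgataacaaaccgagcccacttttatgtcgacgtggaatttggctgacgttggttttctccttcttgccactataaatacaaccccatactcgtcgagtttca

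**Figure D3:**
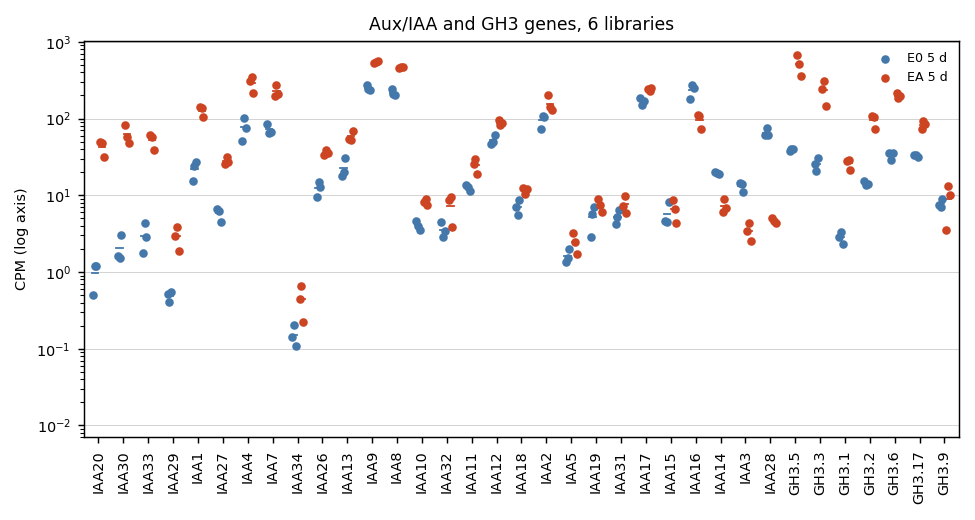
CPM (log axis) of all tested Aux/IAA and *GH3* genes in the 3 E0 and 3 EA libraries at 5 d, ordered by log2 fold change within each family. Points are libraries and horizontal lines group means. *IAA20*, *IAA30*, *IAA33* and *GH3.5* are separated between media by more than the spread of either, whereas *IAA28* runs the other way.

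The transcription factors of auxin signalling rose in part, and 4 of 6 receptor genes did not pass the test. Of 16 ARF genes tested of 23, 10 (62.5%) were higher and 1 lower. *MP* (*ARF5*), which specifies the embryonic root and vasculature, measured 26.6, 20.2 and 24.5 CPM on E0 and 374, 362 and 449.8 CPM on EA, with a log2 fold change of 4.05 (SE 0.17, adjusted p = 1.70e-10). *ARF10*, a microRNA160 target, measured 18.8, 17.7 and 17.8 CPM on E0 and 82.8, 78.2 and 86.1 CPM on EA (log2 fold change 2.19, SE 0.20), and *ARF18* rose by 1.29 (SE 0.18). *NPH4* (*ARF7*) and *ARF19*, the activators of lateral root formation, did not pass, with log2 fold changes of -0.18 (SE 0.16, adjusted p = 0.414) and 0.08 (SE 0.25, adjusted p = 0.829). *ARF20*, the ARF gene called lower, was below 1 CPM on E0, 13.6% of its exonic 76-base words occur elsewhere in the genome, and its call was lost in 4 of the 6 fits without 1 library (without E0 a, E0 c, EA a or EA b). Among the receptor genes *TIR1* measured 77.7, 71.6 and 73.9 CPM on E0 and 66.9, 68.7 and 74 CPM on EA and did not pass (log2 fold change -0.09, SE 0.12, adjusted p = 0.583), *AFB4* rose by 0.86 (SE 0.19) and *AFB1* changed by -1.81 (SE 0.24), and without E0 a 2 receptor genes were lower. Exons of *AFB4* and *AFB1* overlap genes on the other strand over 17.7% and 20.4% of their length.

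Genes of auxin carriers moved in both directions. Of 17 transport genes tested of 18, 9 (52.9%) were higher and 4 (23.5%) lower. *LAX2*, an influx carrier of vascular tissue, measured 39.4, 26.8 and 26.3 CPM on E0 and 652, 660.4 and 789 CPM on EA (log2 fold change 4.5, SE 0.24, adjusted p = 2.34e-09). *PIN3*, known from tropic growth, rose by 2.46 (SE 0.23). *LAX3*, which acts in cells overlying lateral root primordia, measured 26.5, 26.7 and 24.8 CPM on E0 and 0.128, 0.228 and 0.0896 CPM on EA, with a log2 fold change of -7.39 (SE 0.63, adjusted p = 1.56e-07). *PIN2*, the carrier of root epidermis and cortex, measured 126, 178 and 142 CPM on E0 and 43.1, 45.7 and 21.4 CPM on EA (log2 fold change -2.02, SE 0.32). *ABCB19* was lower by a smaller amount, -0.66 (SE 0.23, adjusted p = 0.0306), and its adjusted p was over 0.05 without E0 b, E0 c, EA a or EA b.

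Genes of auxin synthesis through indole-3-pyruvic acid moved in both directions, and those of the indole-3-acetaldoxime (IAOx) and glucosinolate route fell. Of 12 *TAA* and *YUC* genes tested of 14, 4 (33.3%) were higher and 4 (33.3%) lower. *YUC3* measured 10.7, 11.2 and 11.2 CPM on E0 and 123, 132 and 133 CPM on EA (log2 fold change 3.55, SE 0.20, adjusted p = 3.88e-09) and *YUC9* rose by 2.17 (SE 0.34), whereas *YUC5* measured 2.12, 3.94 and 3.29 CPM on E0 and 0.545, 0.145 and 0.314 CPM on EA (log2 fold change -3.22, SE 0.67, adjusted p = 0.00102) and *YUC4*, which is active in embryos and cotyledon tips, changed by -0.85 (SE 0.24). *TAA1*, the aminotransferase of the first step, did not pass (log2 fold change 0.14, SE 0.24, adjusted p = 0.677). In the other route 11 of 14 genes (78.6%) were lower, with a median of -1.65. *CYP79B3* and *CYP79B2*, which make IAOx from tryptophan, had log2 fold changes of -3.91 (SE 0.37) and -2.33 (SE 0.33), and *CYP83B1*, which commits IAOx to indole glucosinolates, of -2.05 (SE 0.26). *CYP83A1*, its counterpart for aliphatic glucosinolates, measured 22.7, 31.2 and 20 CPM on E0 and 0.128, 0.187 and 0.157 CPM on EA (log2 fold change -7.23, SE 0.78, adjusted p = 1.57e-06), and the regulator *MYB28* and the nitrilase gene *NIT3* changed by -3.87 (SE 0.63) and -3.14 (SE 0.33).

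Regulators of callus and lateral root formation were higher on EA, with 7 of 10 genes (70.0%) called higher, 1 lower and a median of 2.17. *LBD16* and *LBD18* are LATERAL ORGAN BOUNDARIES DOMAIN genes downstream of ARF7 and ARF19. *LBD16* measured 11.4, 9.71 and 11.1 CPM on E0 and 111, 60.2 and 61.7 CPM on EA (log2 fold change 2.85, SE 0.30, adjusted p = 1.10e-06). *LBD18* measured 0.428, 0.506 and 0.768 CPM on E0 and 8.85, 8.8 and 9.9 CPM on EA (log2 fold change 4.11, SE 0.48, adjusted p = 3.51e-06). *LBD33* had at most 3 counts in each E0 library and measured 2.92, 5.11 and 3.61 CPM on EA, at least 16.5-fold higher. *LBD29*, which belongs to the same callus pathway, did not pass, at 0.214, 0.101 and 0.11 CPM on E0 and 0.128, 0.0415 and 0.0224 CPM on EA (log2 fold change -1.42, SE 0.78, adjusted p = 0.168). *LBD17*, the gene called lower, measured 0.38, 0.101 and 0.439 CPM on E0 and 0, 0 and 0 CPM on EA, and with only the 6 libraries in the fit its call was lost. *ESR2* (*DRNL*), a regulator of shoot regeneration from callus and of cotyledon initiation, measured 0.642, 0.809 and 0.878 CPM on E0 and 4.46, 3.59 and 2.44 CPM on EA (log2 fold change 2.21, SE 0.38, adjusted p = 1.79e-04).

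*MP* acts in the embryo through a set of direct targets, and 5 of 7 of these and their partners (71.4%) were higher. *TMO6*, a DOF factor of the vascular cylinder, measured 11.1, 13.7 and 10.8 CPM on E0 and 59.7, 70.8 and 69.4 CPM on EA (log2 fold change 2.5, SE 0.18, adjusted p = 2.50e-08). *TMO5* and its partner *LHW*, which together drive divisions of vascular cells, rose by 1.6 (SE 0.26) and 1.04 (SE 0.14). *TMO7*, the mobile target that moves to the hypophysis, measured 31.2, 19.9 and 19.6 CPM on E0 and 11.3, 14 and 15.5 CPM on EA and did not pass (log2 fold change -0.80, SE 0.43, adjusted p = 0.154).

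The AINTEGUMENTA-LIKE genes, which confer meristem identity and include the PLETHORA root regulators, were higher in 6 of 8 cases (75.0%), with a median of 1.53. *PLT1* measured 4.35, 6.17 and 5.81 CPM on E0 and 139.8, 149.6 and 168 CPM on EA (log2 fold change 4.83, SE 0.20, adjusted p = 1.56e-10) and *PLT2* measured 6.49, 6.17 and 6.8 CPM on E0 and 53.2, 51.1 and 59.4 CPM on EA (log2 fold change 3.07, SE 0.16, adjusted p = 1.54e-09). Both define the root stem cell niche, and their E0 and EA libraries did not overlap. *BBM*, which can itself induce somatic embryos when overexpressed, measured 40.5, 32.2 and 41.4 CPM on E0 and 123, 115 and 125 CPM on EA (log2 fold change 1.67, SE 0.17), and *AIL6* (*PLT3*) rose by 2.09 (SE 0.22). *AIL5* (*PLT5*) did not pass (log2 fold change -0.14, SE 0.15, adjusted p = 0.502).

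Among the WUSCHEL-RELATED HOMEOBOX genes, 6 of 13 tested of 15 (46.2%) were higher and 1 was lower. *WOX5*, which marks the root quiescent centre and is active in callus, measured 1.4, 1.01 and 2.19 CPM on E0 and 8.97, 9.73 and 9.81 CPM on EA (log2 fold change 2.65, SE 0.40, adjusted p = 6.02e-05). *WOX11*, which starts adventitious roots, measured 8.65, 7.69 and 9.43 CPM on E0 and 42, 53.4 and 57.8 CPM on EA (log2 fold change 2.57, SE 0.23, adjusted p = 2.08e-07), and *WOX9* (*STIMPY*), needed for growth of the early embryo, rose by 1.51 (SE 0.27). *WUS*, the organiser gene of the shoot stem cells, was low in every library, at 0.166, 0 and 0.11 CPM on E0 and 0.128, 0.166 and 0.246 CPM on EA, and did not pass (log2 fold change 0.62, SE 0.76, adjusted p = 0.552). *WOX3* (*PRS*), of leaf and cotyledon margins, was the gene called lower, at 3.33, 4.15 and 4.06 CPM on E0 and 1.47, 0.955 and 1.01 CPM on EA (log2 fold change -1.74, SE 0.32, adjusted p = 3.75e-04).

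**Figure D4:**
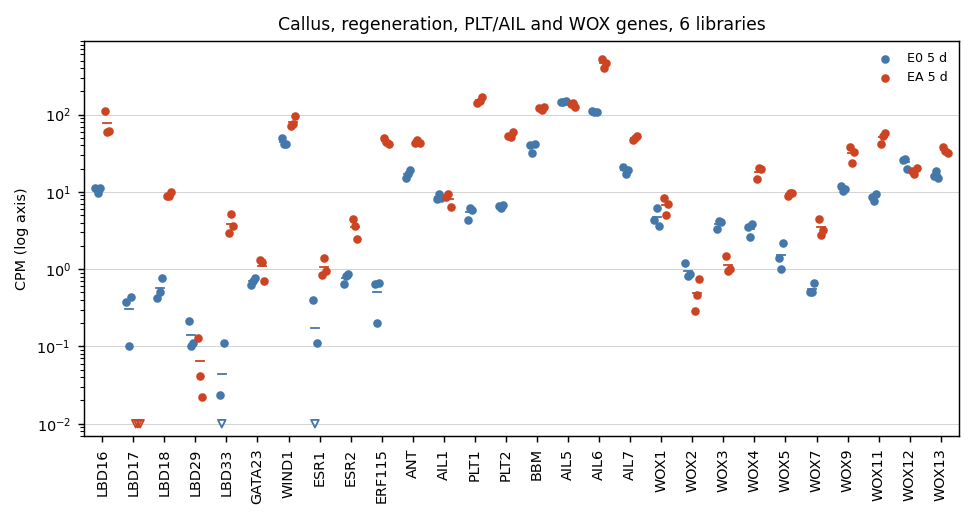
CPM (log axis) of genes of callus and regeneration, *PLT*/*AIL* genes and *WOX* genes in the 3 E0 and 3 EA libraries at 5 d. Points are libraries, horizontal lines group means and open triangles libraries at 0. *PLT1*, *LBD18* and *WOX5* are higher in every EA library, whereas *AIL5* overlaps between media and *WOX3* is lower on EA.

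Regulators of embryo identity rose in part, and those of the shoot meristem were called in both directions. Of 9 seed and embryo regulators tested of 10, 4 (44.4%) were higher and 5 did not pass, with *LEC2* the furthest from 0 (log2 fold change 3.55). *FUS3*, which acts with it in seed maturation, measured 144, 172 and 193 CPM on E0 and 206, 183 and 172 CPM on EA (log2 fold change 0.14, SE 0.28, adjusted p = 0.73). *L1L*, a relative of *LEC1*, measured 60.4, 54.7 and 60.9 CPM on E0 and 88, 79.5 and 89.8 CPM on EA (log2 fold change 0.55, SE 0.31, adjusted p = 0.181). Of 12 genes of the shoot meristem and its boundaries, 3 (25.0%) were higher and 4 (33.3%) lower. *STM*, which keeps shoot cells undifferentiated, measured 4.33, 2.73 and 4.28 CPM on E0 and 7.21, 6.41 and 7.15 CPM on EA and did not pass (log2 fold change 0.86, SE 0.38, adjusted p = 0.0853), and the boundary gene *CUC2* did not pass either (log2 fold change -0.59, SE 0.40, adjusted p = 0.261). *KNAT6* rose by 0.83 (SE 0.21). *CLV3*, the peptide gene of the shoot stem cells, measured 0.404, 0.708 and 0.768 CPM on E0 and was at or under the floor on EA, at least 8.33-fold lower.

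The class III HD-ZIP genes *PHB*, *PHV*, *REV*, *ATHB-15* (*CORONA*) and *HB-8*, of the adaxial side and the vascular cylinder, were all called higher and a pair of abaxial genes lower. Of 19 polarity genes, 9 (47.4%) were higher and 2 (10.5%) lower. *PHB*, which specifies the adaxial side of leaves, measured 49.9, 43.6 and 44.3 CPM on E0 and 278, 356 and 424 CPM on EA (log2 fold change 2.94, SE 0.17, adjusted p = 3.73e-09), and *PHV* and *REV* rose by 2.2 (SE 0.18) and 1.36 (SE 0.23). *ATHB-15* and *HB-8* are genes of vascular tissue. *ATHB-15* measured 19.2, 15.4 and 21.8 CPM on E0 and 91.9, 128 and 159.8 CPM on EA (log2 fold change 2.75, SE 0.24, adjusted p = 2.14e-07), and *HB-8* measured 18.1, 18.4 and 16.4 CPM on E0 and 170.3, 204 and 195 CPM on EA (log2 fold change 3.43, SE 0.16, adjusted p = 3.76e-10). *ZPR1*, a small protein that inhibits this class, rose by 2.52 (SE 0.27). The abaxial genes *KAN* (*KANADI1*) and *ATS* (*KANADI4*) were the genes called lower, with log2 fold changes of -1.3 (SE 0.27, adjusted p = 0.00105) and -1.57 (SE 0.23, adjusted p = 3.20e-05). Of the *KAN* exons, 19.3% overlap a gene on the other strand.

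Most cell division genes were higher on EA, although 4 of 9 D-type cyclins did not pass the test. Of 19 mitotic cyclin and CDKB genes, 16 (84.2%) were higher, with a median of 1.37 and a range of 0.34 to 2.33 over all 19. *CYCA2;4* measured 9.22, 7.58 and 4.61 CPM on E0 and 35.3, 44.6 and 30.4 CPM on EA (log2 fold change 2.33, SE 0.26, adjusted p = 2.72e-06), *CYCB2;2* measured 15.8, 11.8 and 13.5 CPM on E0 and 41.7, 49.3 and 48.6 CPM on EA (log2 fold change 1.75, SE 0.18, adjusted p = 1.21e-06), and *CYCB1;1*, the usual reporter of cells between G2 and mitosis, measured 13.6, 12.9 and 12.1 CPM on E0 and 31.1, 35 and 38.8 CPM on EA (log2 fold change 1.44, SE 0.16). *CDKB2;1* rose by 1.05 (SE 0.21), and *CDKB1;1* did not pass (log2 fold change 0.52, SE 0.36, adjusted p = 0.276). All 8 of the MCM and PCNA replication genes were higher, within 1.03 to 1.57, such as *MCM6*, part of the replicative helicase, at 20.6, 20.6 and 20.2 CPM on E0 and 54, 64.5 and 64 CPM on EA, and *MCM2*, which rose by 1.07 (SE 0.13). Among D-type cyclins, which carry growth signals into G1, 5 of 9 tested of 10 (55.6%) were higher. *CYCD3;1*, a cytokinin-responsive member, measured 31.2, 29.4 and 26 CPM on E0 and 93.5, 100.4 and 98.5 CPM on EA (log2 fold change 1.75, SE 0.13, adjusted p = 2.88e-08), and *CYCD3;2* did not pass (log2 fold change -0.02, SE 0.30, adjusted p = 0.96).

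The promoter of *CYCB2;2* is shown for its 3 matches to an element of mitotic genes, and that of *MCM6*, the most risen of the replication genes, for its match to an element of S-phase genes. For *CYCB2;2* (chr4:16901296-16901595, plus strand) capitals mark the core of the mitosis-specific activator (MSA) element, AACGG, or its reverse complement CCGTT, which MYB3R factors bind in G2/M genes, and for *MCM6* (chr5:18010668-18010967, minus strand) they mark the E2F site TTTCCCGC or GCGGGAAA of S-phase genes. Both are the 300 bases before the start from the same RefSeq annotation.
CYCB2;2: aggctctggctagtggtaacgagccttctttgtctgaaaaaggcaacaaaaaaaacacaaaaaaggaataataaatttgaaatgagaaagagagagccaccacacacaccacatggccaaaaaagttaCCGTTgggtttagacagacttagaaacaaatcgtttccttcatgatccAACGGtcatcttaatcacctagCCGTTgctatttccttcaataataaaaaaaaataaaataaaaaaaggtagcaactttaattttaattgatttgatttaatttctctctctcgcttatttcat
MCM6: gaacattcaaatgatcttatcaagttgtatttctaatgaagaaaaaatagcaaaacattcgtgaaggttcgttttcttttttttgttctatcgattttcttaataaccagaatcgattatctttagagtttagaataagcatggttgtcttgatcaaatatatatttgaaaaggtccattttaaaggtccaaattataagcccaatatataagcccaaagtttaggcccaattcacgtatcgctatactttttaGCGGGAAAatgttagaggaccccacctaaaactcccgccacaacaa
The MSA core was present in 12 of 19 mitotic cyclin and CDKB promoters (63.2%), compared with 24.4% of all, 27.2% of genes called higher and 20.4% of genes called lower. The E2F site was present in 3 of 8 replication promoters, *MCM2*, *MCM5* and *MCM6*, compared with 0.704% of all promoters, 1.47% of genes called higher and 0.373% of genes called lower.

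Inhibitors of cyclin-dependent kinases and activators of the endocycle, in which cells replicate DNA without dividing, were more often lower, at 6 of 11 (54.5%), with 3 (27.3%) higher. *LGO* (*SMR1*), which promotes the endocycle in epidermal cells, measured 42.1, 106 and 62.1 CPM on E0 and 2.82, 3.84 and 2.6 CPM on EA (log2 fold change -4.49, SE 0.57, adjusted p = 9.17e-06). *SIM*, which does so in trichomes, measured 25.7, 67.5 and 38.1 CPM on E0 and 6.54, 6.46 and 6.34 CPM on EA (log2 fold change -2.76, SE 0.40, adjusted p = 3.37e-05). Exons of *LGO* and *SIM* overlap genes on the other strand over 40.3% and 31.4% of their length. *KRP2*, an auxin-repressed inhibitor that restrains lateral root initiation, measured 8.46, 12.6 and 14.2 CPM on E0 and 2.12, 3.4 and 3.02 CPM on EA (log2 fold change -2.02, SE 0.34, adjusted p = 1.71e-04). *KRP7* ran the other way, with a log2 fold change of 1.7 (SE 0.23).

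Root hair genes were lower on EA without exception and had the lowest median of the gene groups examined, with 20 of 20 called lower and a median log2 fold change of -6.65. Root hairs are outgrowths of single epidermal cells, started by the bHLH factor RHD6 and grown under RSL4. *RSL4* measured 20, 20.5 and 21.8 CPM on E0 and 0.0641, 0.477 and 0.179 CPM on EA (log2 fold change -6.33, SE 0.58, adjusted p = 2.88e-07). *RHD2*, the NADPH oxidase of the growing tip, measured 73.9, 72.9 and 65.2 CPM on E0 and 0.352, 1.29 and 0.583 CPM on EA (log2 fold change -6.53, SE 0.51, adjusted p = 5.98e-08), and *EXPA7*, a root hair expansin, measured 36.8, 28 and 30.4 CPM on E0 and 0.256, 0.436 and 0.358 CPM on EA (log2 fold change -6.46, SE 0.70, adjusted p = 1.81e-06). The wall genes *PRP3* and *LRX1* changed by -8.82 (SE 1.01) and -7.02 (SE 0.59). *RHD6* itself changed less, from 20.4, 15.9 and 22.1 CPM to 6.67, 14.6 and 5.67 CPM (log2 fold change -1.11, SE 0.34, adjusted p = 0.0163), and its adjusted p was over 0.05 without E0 c, EA a or EA c. *CSLD3*, a cellulose synthase-like gene needed for hair growth, had the smallest change, -0.74 (SE 0.17, adjusted p = 0.00262). All 20 were above the floor in every E0 library, and the summed level of the list was 1187, 1521 and 1309 CPM on E0 and 136, 147 and 144 CPM on EA. In these bulk samples fewer cells of a type and less RNA per cell cannot be told apart.

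Genes of the differentiated endodermis, the inner root layer sealed by the Casparian strip, fell, whereas *SHR*, which specifies the layer, rose. Of 10 genes, 7 (70.0%) were lower and 1 (10.0%) was higher. *CASP1*, a scaffold protein of the strip, measured 49, 73.2 and 74.6 CPM on E0 and 0.288, 0.104 and 0.0896 CPM on EA (log2 fold change -8.75, SE 1.02, adjusted p = 3.83e-06), and *MYB36*, which switches on strip formation, measured 9.44, 8.8 and 9.11 CPM on E0 and 0.192, 0.249 and 0.0896 CPM on EA (log2 fold change -5.66, SE 0.53, adjusted p = 3.92e-07). *SHR*, a mobile factor made in the stele, was the gene called higher, at 40.7, 42.9 and 39.7 CPM on E0 and 153, 175 and 234 CPM on EA (log2 fold change 2.19, SE 0.24, adjusted p = 1.71e-06). Its partner *SCR* measured 114, 152 and 127 CPM on E0 and 107, 82.3 and 90.4 CPM on EA and did not pass (log2 fold change -0.49, SE 0.25, adjusted p = 0.14), although its EA libraries were all below its E0 libraries. The list held both kinds of gene, and its summed level was 409.7, 471 and 429 CPM on E0 and 406, 401 and 475 CPM on EA.

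**Figure D5:**
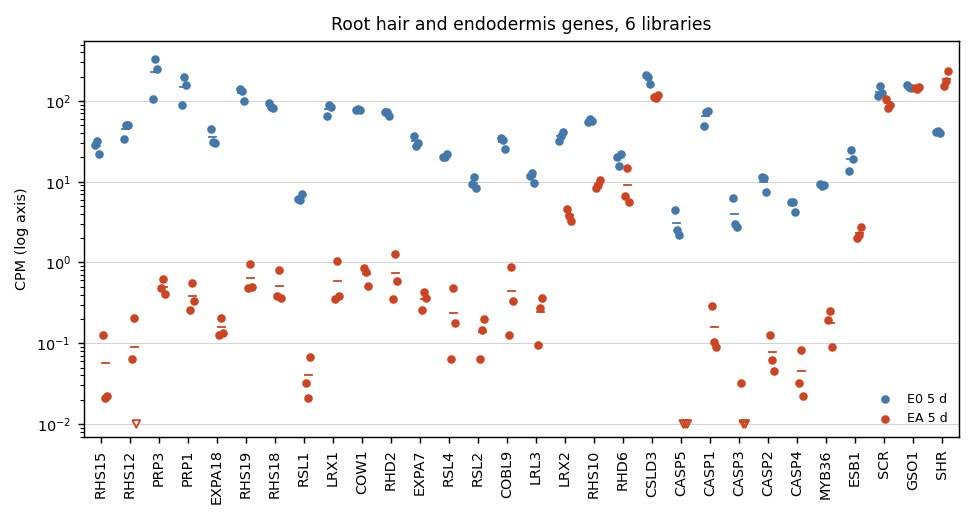
CPM (log axis) of the 20 root hair genes and, from *CASP5* on, the 10 endodermis genes in the 3 E0 and 3 EA libraries at 5 d. Points are libraries, horizontal lines group means and open triangles libraries at 0. *RSL4*, *RHD2*, *CASP1* and *MYB36* are far lower in every EA library, *RHD6* and *CSLD3* are less so, and *SHR* is higher.

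Genes of xylem secondary walls were lower too, with 8 of 11 genes (72.7%) lower and a median of -2.18. *CESA4*, a cellulose synthase of secondary walls, measured 10.7, 12.1 and 9.87 CPM on E0 and 2.05, 2.72 and 1.61 CPM on EA (log2 fold change -2.35, SE 0.26, adjusted p = 1.72e-06). *LAC4*, a lignin laccase, changed by -2.84 (SE 0.31) and the protease gene *XCP1* by -2.69 (SE 0.27). *VND7*, a master switch of vessel formation, measured 0.927, 1.01 and 1.32 CPM on E0 and 1.63, 1.43 and 0.807 CPM on EA and did not pass (log2 fold change 0.28, SE 0.41, adjusted p = 0.633).

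Wall-loosening genes were split, with 23 of 44 expansin and xyloglucan endotransglucosylase (XTH) genes tested of 53 lower (52.3%) and 10 higher (22.7%). *XTH31* measured 144, 143 and 160.3 CPM on E0 and 0.385, 0.976 and 0.246 CPM on EA (log2 fold change -8.07, SE 0.70, adjusted p = 1.84e-07) and *XTH26* changed by -8.55 (SE 0.67). *EXPA4* measured 129.9, 121 and 146 CPM on E0 and 478, 459 and 412 CPM on EA (log2 fold change 1.77, SE 0.17, adjusted p = 6.37e-07) and *XTH25* measured 9.22, 5.66 and 3.29 CPM on E0 and 68.1, 63.7 and 62 CPM on EA (log2 fold change 3.36, SE 0.45, adjusted p = 1.72e-05), both higher in every EA library. The largest fitted rise of the group was that of *EXPA2*, an expansin gene of germinating seeds, which had no counts on E0 and measured 0.352, 0.56 and 1.14 CPM on EA, at least 2.92-fold higher against the floor.

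Most photosynthesis genes did not pass the test at 5 d. Of 16 light-harvesting genes, 2 (12.5%) were higher and 14 did not pass, within -0.22 to 1.06 on the log2 scale. *CAB1* measured 1183, 705 and 662 CPM on E0 and 646, 856 and 1133 CPM on EA (log2 fold change 0.05, SE 0.42, adjusted p = 0.944), and 7.36% of its exonic 76-base words occur elsewhere in the genome. *LHCA1* measured 66.1, 64.3 and 73.7 CPM on E0 and 82.5, 107 and 204 CPM on EA (log2 fold change 0.95, SE 0.34, adjusted p = 0.0336), which without EA c was 0.48, and in the fits without E0 a, E0 b, E0 c or EA c no gene of the list was called. Of 21 nuclear photosystem genes, 1 (4.76%) was lower, *PSAG* (log2 fold change -0.61, SE 0.20, adjusted p = 0.0257), with 61.4% of its exon length overlapping a gene on the other strand. It was not called with library totals, or without E0 b, EA a or EA b. Of 13 genes of RuBisCO and chlorophyll synthesis tested of 14, 4 (30.8%) were lower, and 2 without E0 b, EA b or EA c. *RCA*, RuBisCO activase, measured 57.5, 99 and 88.4 CPM on E0 and 41, 49.1 and 39.5 CPM on EA (log2 fold change -0.92, SE 0.22, adjusted p = 0.00314), and the greening regulator *GLK2* changed by -1.24 (SE 0.18). *RBCS1A*, the main small subunit gene, did not pass (log2 fold change -0.64, SE 0.28, adjusted p = 0.0803). The largest decrease of the group was that of *RBCS2B*, a minor small subunit gene, at 0.784, 2.23 and 0.219 CPM on E0 and 0.0961, 0.083 and 0.0224 CPM on EA (log2 fold change -3.92, SE 1.29, adjusted p = 0.0236). Its call was lost without E0 b, EA b or EA c, and 5.07% of its exonic 76-base words occur elsewhere in the genome.

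None of 12 stomatal genes was called by edgeR, within -1.27 to 0.43 on the log2 scale. At an unadjusted p under 0.05, 1 was higher and 3 lower, beside 11173 of all 23539 genes in either direction. The libraries did not overlap for 4 of the 12, beside 57.8% of all genes. By DESeq2's Wald test 1 was lower, and in edgeR's fit without E0 c 1 was higher. *SPCH*, which starts the stomatal lineage, measured 4.71, 7.08 and 4.72 CPM on E0 and 5.51, 6.48 and 6.74 CPM on EA (log2 fold change 0.19, SE 0.34), and *TMM*, a receptor-like protein of that lineage, measured 5.8, 5.16 and 4.28 CPM on E0 and 4.07, 6.02 and 5.94 CPM on EA (log2 fold change 0.06, SE 0.45). The summed level of the list was 44.1, 47.1 and 50.2 CPM on E0 and 45.4, 52.7 and 59.4 CPM on EA. Of 307 cytosolic and other ribosomal protein genes tested of 328, 21 (6.84%) were higher and 12 (3.91%) lower, under the background in both directions. The higher count was 12 without E0 c and 45 with library totals, and the lower count was 49 with only the 6 libraries in the fit. Of 114 genes of the chloroplast genome tested of 133, 1 was higher and 4 lower, and of 97 mitochondrial genes tested of 152, 4 were higher. The chloroplast counts ranged from 0 to 1 and from 2 to 4 over the fits without 1 library, and the mitochondrial count from 1 to 7.

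Type-A response regulators of cytokinin were more often lower than higher, and genes of cytokinin metabolism were called in both directions. Of 10 type-A response regulators, which are induced by cytokinin and repress its signalling, 4 (40.0%) were lower and 1 (10.0%) higher. *ARR7* measured 3.99, 4.65 and 4.72 CPM on E0 and 10.1, 10.4 and 10.8 CPM on EA (log2 fold change 1.24, SE 0.27, adjusted p = 0.00162), whereas *ARR5* and *ARR8* changed by -1.21 (SE 0.26, adjusted p = 0.00124) and -1.55 (SE 0.21, adjusted p = 1.52e-05). Of 11 genes for synthesis and breakdown of the hormone, 4 (36.4%) were higher and 5 (45.5%) lower, the latter 3 without E0 a, E0 c or EA c, and their summed level was 58.4, 51.8 and 55.1 CPM on E0 and 88.6, 89 and 84.2 CPM on EA. *IPT3*, a synthesis gene of the phloem, measured 5.82, 8.6 and 4.61 CPM on E0 and 0.256, 0.374 and 0.291 CPM on EA (log2 fold change -4.33, SE 0.41, adjusted p = 4.18e-07), and *IPT5*, an auxin-inducible synthesis gene, measured 4.59, 5.36 and 5.38 CPM on E0 and 16.9, 13.6 and 14.3 CPM on EA (log2 fold change 1.55, SE 0.23, adjusted p = 3.65e-05). The cytokinin oxidase genes *CKX1* and *CKX6* rose by 3.0 (SE 0.47) and 2.35 (SE 0.35), and 35.2% and 91.5% of their exon length overlap genes on the other strand.

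Most genes of ethylene synthesis fell on EA, and a single ACC synthase gene rose. Of 11 ACC synthase and ACC oxidase genes tested of 13, 7 (63.6%) were lower and 2 (18.2%) higher. Their summed level, in contrast, was higher in every EA library, at 769, 785 and 868 CPM on E0 and 924, 1085 and 909 CPM on EA. *ACS8*, an auxin-inducible ACC synthase, measured 0.856, 0.91 and 0.439 CPM on E0 and 24.4, 27.2 and 17.4 CPM on EA (log2 fold change 4.89, SE 0.61, adjusted p = 7.29e-06). *ACS9* measured 7.51, 8.39 and 7.24 CPM on E0 and 0.0641, 0.124 and 0.0896 CPM on EA (log2 fold change -6.29, SE 0.76, adjusted p = 5.26e-06) and *ACS7* changed by -3.93 (SE 0.42). The oxidase gene *ACO5* changed by -1.71 (SE 0.30, adjusted p = 2.65e-04).

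Most jasmonate genes were lower on EA, with 17 of 27 tested of 28 (63.0%) lower, 2 (7.41%) higher and a median of -1.72. *LOX2*, the chloroplast lipoxygenase of the first step, measured 16.7, 15.8 and 6.69 CPM on E0 and 1.76, 1.2 and 0.762 CPM on EA (log2 fold change -3.43, SE 0.55, adjusted p = 1.05e-04), *AOS* measured 13.9, 14.5 and 13.4 CPM on E0 and 4.71, 3.88 and 4.05 CPM on EA (log2 fold change -1.72, SE 0.27, adjusted p = 8.73e-05), and *OPR3*, the reductase of the peroxisomal part, changed by -1.02 (SE 0.20, adjusted p = 5.48e-04). *VSP1*, a storage protein gene used as a response marker, measured 0.903, 1.72 and 1.1 CPM on E0 and was at or under the floor on EA, at least 16.5-fold lower. *MYC2*, the central transcription factor, changed by -2.31 (SE 0.26), but 98.5% of its exon length overlaps a gene on the other strand. The genes called higher were *JMT*, described above, and the repressor gene *JAZ10* (log2 fold change 1.38, SE 0.34, adjusted p = 0.00395).

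The other hormones gave smaller counts. Of 14 gibberellin oxidase genes tested of 16, 4 (28.6%) were lower and 1 (7.14%) higher. *GA3OX1*, which makes the active hormone during germination, measured 1.47, 3.03 and 1.65 CPM on E0 and 0, 0.0208 and 0.0896 CPM on EA (log2 fold change -5.55, SE 0.73, adjusted p = 1.29e-05), *GA20OX3* changed by -1.11 (SE 0.16), and *GA2OX2*, which inactivates gibberellin, measured 3.35, 3.44 and 4.06 CPM on E0 and 25.2, 22.7 and 19.2 CPM on EA (log2 fold change 2.64, SE 0.42, adjusted p = 9.24e-05). Of 12 abscisic acid genes, 2 (16.7%) were called in each direction. *NCED3*, a synthesis gene known from drought, measured 5.89, 4.35 and 5.49 CPM on E0 and 0.833, 0.706 and 0.605 CPM on EA (log2 fold change -2.88, SE 0.43, adjusted p = 4.37e-05). *NCED5*, a synthesis gene known from seeds, measured 1.93, 1.82 and 1.75 CPM on E0 and 10, 4.34 and 4.46 CPM on EA (log2 fold change 1.76, SE 0.45, adjusted p = 0.00483). The count of higher genes was 1 without E0 b, E0 c or EA a.

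Of 11 salicylate and defence genes tested of 13, 4 (36.4%) were lower and 1 (9.09%) higher. *PAD3*, of camalexin synthesis, measured 2.95, 2.43 and 1.86 CPM on E0 and 25.3, 45.8 and 33.9 CPM on EA (log2 fold change 3.81, SE 0.43, adjusted p = 2.79e-06), *EDS1*, a hub of immune signalling, changed by -1.87 (SE 0.40), and *ICS2*, an isochorismate synthase gene, measured 5.44, 3.64 and 3.62 CPM on E0 and was at least 56.3-fold lower on EA. Of 40 glutathione S-transferase genes of the tau and phi classes tested of 41, 16 (40.0%) were lower and 4 (10.0%) higher. *GSTU12* measured 0.119, 0 and 0.11 CPM on E0 and 1.54, 1.58 and 1.5 CPM on EA (log2 fold change 4.0, SE 0.82, adjusted p = 9.50e-04) and *GSTU14* measured 14.3, 10.4 and 15.9 CPM on E0 and 0.192, 0.187 and 0.134 CPM on EA (log2 fold change -6.29, SE 0.76, adjusted p = 5.32e-06). *GSTF8*, a stress-induced member, changed by -3.33 (SE 0.20) and *GSTU19* did not pass (log2 fold change 0.06, SE 0.18, adjusted p = 0.834). The count of higher members was 1 without E0 b and 2 without E0 c or EA b.

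Of 8 flavonoid genes, 3 (37.5%) were lower, among them *DFR*, of the anthocyanin branch, at 3.59, 4.25 and 1.86 CPM on E0 and 0.0961, 0.291 and 0.157 CPM on EA (log2 fold change -4.09, SE 0.68, adjusted p = 1.39e-04), whereas *TT4*, chalcone synthase at the entry of the pathway, did not pass (log2 fold change -0.59, SE 0.49, adjusted p = 0.37). The list of *SAUR* genes, a family of small auxin-responsive genes, was matched by gene symbol and may not hold the whole family. Of its 15 genes 8 were tested, of which 2 (25%) were lower. *SAUR9* measured 0.951, 1.52 and 1.98 CPM on E0 and 0.0321, 0.27 and 0.291 CPM on EA (log2 fold change -2.77, SE 0.62, adjusted p = 0.00178). *SAUR24* had at most 4 counts in each E0 library and none on EA, and its call was lost in 5 of the 6 fits without 1 library, all but that without E0 b.

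Seed reserve genes were abundant in both media and lower on EA, with 10 of 17 (58.8%) called lower and a median of -0.85. Their summed level was 154000, 164300 and 113100 CPM on E0 and 60090, 46460 and 42470 CPM on EA, so that the groups did not overlap. *CRA1*, a 12S globulin gene, measured 33870, 29080 and 21170 CPM on E0 and 9479, 8680 and 7378 CPM on EA (log2 fold change -1.72, SE 0.29, adjusted p = 1.55e-04). *CRC*, another of this class, measured 42930, 69910 and 34990 CPM on E0 and 11520, 9933 and 4771 CPM on EA (log2 fold change -2.5, SE 0.48, adjusted p = 5.12e-04). The 2S albumin genes *SESA1* and *SESA3* changed by -1.7 (SE 0.39) and -1.73 (SE 0.41). *OLEO1*, an oil body protein gene, changed by -0.77 (SE 0.25, adjusted p = 0.0203), and its adjusted p was over 0.05 without E0 a, EA b or EA c. Without EA b 6 of the 17 were lower.

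Of 8 genes of seedling establishment, 2 were called in each direction. The glyoxylate cycle genes *ICL* and *MLS*, which feed stored oil into sugar synthesis, changed by -1.01 (SE 0.30, adjusted p = 0.0132) and -1.2 (SE 0.30, adjusted p = 0.00448), and *PCK1*, of the same route to sugar, by 1.34 (SE 0.18, adjusted p = 1.79e-05). The other gene called higher was *EXPA2*, described among the expansins. The call of *ICL* was lost without EA c, where its log2 fold change was -0.86.

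Markers of the tissues that surround an embryo in the seed were detected in part in both media. Of 9 endosperm markers 5 were tested and 2 were lower, with a summed level of 2.23, 2.12 and 2.19 CPM on E0 and 1.28, 1.04 and 1.61 CPM on EA, and *FWA*, *FIS2*, *PHE1* and *MINI3* did not pass the filter on low counts. Of 8 seed coat markers 5 were tested, of which 3 were lower and 1 higher, with a summed level of 126, 122 and 123 CPM on E0 and 63.5, 68.4 and 68.3 CPM on EA. *MUM2*, of mucilage modification, measured 37.5, 36.9 and 38.1 CPM on E0 and 3.65, 1.87 and 2.08 CPM on EA (log2 fold change -3.9, SE 0.32, adjusted p = 8.76e-08), *STK*, an ovule identity gene, measured 0.356, 0.101 and 0.768 CPM on E0 and 1.44, 2.53 and 2.67 CPM on EA (log2 fold change 2.5, SE 0.50, adjusted p = 7.74e-04), and the defining genes *TT2*, *BAN* and *TT12* did not pass the filter. The single pollen and tapetum marker tested of 3, *AMS*, summed to at most 0.54 CPM. The part of these tissues in the results was not tested.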

How the data were processed

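RNA of pooled explants was depleted of ribosomal RNA, sequenced in pairs, and the authors demultiplexed, trimmed and filtered the reads, aligned them to TAIR10 with STAR and deposited raw counts, the number of reads aligned to a single place in each gene. The strand setting and annotation release are not given in the sources used here, so overlap with genes on the other strand is given where it bears on a value. The table holds 34218 genes in 18 libraries. Genes of low count were removed by filterByExpr in edgeR (6 groups), and the rest were scaled by TMM and fitted with edgeR's quasi-likelihood model, 1 mean per group over all 18 libraries (R 4.3.3, edgeR 4.0.16, limma 3.58.1, DESeq2 1.42.0 as an alternative). Benjamini-Hochberg adjustment of p-values ran over all 23539 genes tested, with a threshold of 0.05, and SEs were derived from the test statistic. CPM are on library sizes multiplied by the TMM factors. Where every library of a group had at most 3 counts, a fold is given as a bound against the mean of 3 counts per library. Such floors cover counting error only.

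The rule-chosen genes are the 10 most risen and 10 most fallen by log2 fold change among called genes with a mean of at least 10 CPM in the higher group and no overlap between the 6 libraries. Other genes are members of gene lists, named for their role. From lists matched by symbol, 3 genes whose product is another kind of protein were left out. The members and lists were chosen with earlier results of these data known. Exon overlap and repeated 76-base words were computed on TAIR10.1 for the 182 named genes. Motifs were searched on both strands in 300 bases before the annotated start. Replicate letters were not used to pair the libraries, as a check by the correlation of deviations from group means showed no shared variation. The alternatives were other scalings, thresholds, tests, filters and fits, a replicate block and fits without each library. The test was also run on simulated data, whose outcome is not reported here and on which no result rests. The authors' hormone measurements, RT-qPCR and mutants were not analysed here, and some list members and sequences are not reported here.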

Additional observations from a re-analysis of the deposited data

Results flagged for a closer look

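The effect of EA at 10 d differed from that at 5 d, by an interaction contrast in the same edgeR fit at an adjusted p under 0.05, for 45 of the 182 named genes, and 8.81% of all genes tested passed the same test. The named genes were chosen with earlier results of these data known, and the contrast uses the same 5 d libraries, so that this count is a description. Each value below is the 10 d effect minus the 5 d effect on the log2 scale. It holds the change between days on both media, and which of them changed was not tested.

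The decrease at 5 d was smaller at 10 d for *IAA28* by 2.59, for *PIN2* by 1.5 and for *LAX3* by 5.57. The same held in the IAOx route for *CYP79B2* by 2.06, *CYP79B3* by 2.68 and *CYP83B1* by 1.43. Among genes of root layers and walls it held for *EXPA7* by 3.08, *LRX1* by 3.51, *MYB36* by 2.9, *XCP1* by 1.19 and *XTH26* by 3.32. *GSTF8* differed by 1.39, *CLV3* by 3.84 and *LBD17* by 5.58. As *CLV3* and *LBD17* were at or under the floor on EA at 5 d, the size of their differences is uncertain. *IAA14*, *AFB1*, *ABCB19*, *KRP2*, *ACO5* and *SAUR9*, lower on EA at 5 d, had fitted effects above 0 at 10 d, with differences of 2.51, 2.23, 1.86, 2.24, 2.86 and 4.82.

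The rise at 5 d was larger at 10 d for *YUC3* by 1.42, *LHW* by 0.63, *WOX11* by 2.22, *STK* by 3.99 and AT5G43240 by 3.03. Genes not called at 5 d had a more positive effect at 10 d, namely *IAA2* by 1.52, *IAA17* by 1.38, *TIR1* by 0.58, *TAA1* by 1.31, *STM* by 1.89, *CUC2* by 3.73 and *TMO7* by 2.71.

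The rise at 5 d was smaller at 10 d for *GH3.2*, *ARF18*, *LBD16*, *LBD33* and *TMO5*, with differences of -1.71, -1.03, -2.39, -5.54 and -1.6, and for *HB-8* and *CYCD3;1*, with differences of -0.87 and -1.36. As *LBD33* was at or under the floor on E0 at 5 d, the size of its difference is uncertain. *XTH25* and *LHCA1*, higher at 5 d, had fitted effects under 0 at 10 d, with differences of -4.84 and -1.66. The decrease at 5 d was larger at 10 d for *SESA1*, *LOX2*, *RCA* and *DFR*, with differences of -2.23, -3.83, -1.65 and -4.04.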

How the results depend on the processing

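When a change of at least 1 on the log2 scale was required besides the adjusted p, 1958 genes were higher and 3834 lower, and with glmTreat against that change 934 and 2645. The counts were 4175 and 4777 without a filter, 5451 and 5582 with only the 6 libraries in the fit and 4190 and 5457 by DESeq2's Wald test. Without 1 library each they ranged from 3301 to 3914 higher and from 4198 to 4416 lower. The replicate letters were not treated as pairs. The correlations of deviations were -0.133, 0.0078 and 0.0459 for the same letter and -0.105 to 0.0963 for different letters. No shared variation was seen, but with 3 libraries in a group this check cannot exclude a pairing. With a replicate block the counts were 4588 and 4994. Of the 182 named genes, 156 were called, and 141 kept their call or lack of it under every alternative. No gene reversed its direction where it was called in the main fit or in the alternative. The direction of genes called in neither was not compared. A call was lost in 80 cases of a gene and a setting and gained in 12, and 9 genes, *ABCB19*, *ARF20*, *ICL*, *LHCA1*, *OLEO1*, *PSAG*, *RBCS2B*, *RHD6* and *SAUR24*, lost it without 1 library. The cause was not tested. Of the 6 libraries, E0 b and E0 c had the fewest counts and the highest floors, at 0.303 and 0.329 CPM. Whether depth bears on the lost calls was not tested.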
